A study of Mus musculus with 6 samples.

Results

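The granzyme, perforin and serglycin genes were followed as a group of 10 among the 52550 genes of the deposited count tables. The members were chosen by gene name: the granzymes Gzma, Gzmb, Gzmc, Gzmd, Gzme, Gzmf, Gzmk and Gzmm, the pore-forming protein perforin (Prf1), and serglycin (Srgn), the proteoglycan that packs them. All 10 were found in the tables, with 20 annotated transcripts. RNA was sequenced from wild-type mouse splenic CD3+ T cells that were activated for 24 h with an anti-CD3/CD28 activator, which triggers the T cell receptor (TCR) and its costimulator. In 3 samples the cells were activated without further addition (TCR alone), and in 3 samples they were activated in the presence of DMGV at 100 ng/ml (TCR+DMGV). The labels name the compound DMGV (dimethylguanidino valeric acid), while the study's text names the activity added in its RNA sequencing experiment LNY1, and the labels' name is used here. No unstimulated sample was used here, so the values are levels in activated cells and not the response to activation. The labels call the samples biological replicates but do not say whether each came from its own mouse, so the p-values measure the spread between these samples, which may be in part technical.

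Cytotoxic lymphocytes store granzymes, which are serine proteases, in acidic granules together with perforin. When the granule is released against a target cell, perforin forms pores through which granzymes reach the cytosol and cleave proteins of the target. Serglycin carries sulfated sugar chains that bind the positively charged granzymes inside the granule. Granzyme B is the family member best known from activated T cells, and the mouse genome holds a row of related granzyme genes beside it on chromosome 14.

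All 8 granzymes share the catalytic center of a serine protease, and the coding sequence around the catalytic serine is shown to let the members be compared where their function is the same. The stretches are 33 bases of the spliced coding sequence, read 5′ to 3′ from the annotated transcripts (GENCODE M21, GRCm38), and the capitals mark the codon of the catalytic serine.
Gzmb: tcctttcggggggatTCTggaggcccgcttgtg
Gzmc: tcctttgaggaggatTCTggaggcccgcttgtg
Gzmd: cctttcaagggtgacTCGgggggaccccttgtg
Gzme: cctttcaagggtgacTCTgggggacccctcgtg
Gzmf: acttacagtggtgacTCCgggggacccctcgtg
Gzma: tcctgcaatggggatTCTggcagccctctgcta
Gzmk: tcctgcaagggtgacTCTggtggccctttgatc
Gzmm: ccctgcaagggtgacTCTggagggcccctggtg
Each stretch crosses the junction of the fourth and the fifth exon. The genes Gzmb to Gzmf lie on the minus strand of chromosome 14, where the Gzmb stretch spans chr14:56259539-56260190 with its intron and the Gzmc stretch spans chr14:56231634-56232247. The Gzmd, Gzme and Gzmf stretches span chr14:56129795-56130208, chr14:56117846-56118259 and chr14:56205495-56205925. Gzma and Gzmk lie on the minus strand of chromosome 13, with stretches over chr13:113094027-113095759 and chr13:113172012-113172893. Gzmm lies on the plus strand of chromosome 10, with its stretch over chr10:79694609-79695010. Gzmb and Gzmc differed at 3 of the 33 bases and Gzmd and Gzme at 2, whereas Gzma and Gzmk differed at 8 and Gzmb and Gzmf at 13.

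Over the whole coding sequence Gzmd and Gzme were 93.3% identical and Gzmb and Gzmc 76.2%. Reads can therefore be shared within the chromosome 14 row. Of all windows of 50 bases in the transcript, 21.9% in Gzmd, 20.6% in Gzme, 19.4% in Gzmf and 4.14% in Gzmc occurred in another gene, and none did in Gzmb, Gzma, Gzmk, Gzmm, Prf1 or Srgn. The values of Gzmd, Gzme and Gzmf, and to a lesser extent Gzmc, thus depend on how the authors' counting divided such reads.

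The libraries held from 37758725 to 43718867 counts. The samples did not separate by treatment on the first principal component of all tested genes, which held 32.2% of the variance. TCR alone replicate 3 (score 42.1) and TCR+DMGV replicate 1 (score 42.9) stood apart from the other 4 samples, whose scores lay between -34.9 and -10.5. On the third component, which held 17.4%, the groups lay apart, with scores of -27.1, -16.2 and -15.7 in TCR alone and 0.618, 20.4 and 37.99 in TCR+DMGV. For some genes the values without both samples that stood apart on the first component are given beside the result.

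Gzmb RNA was by far the most abundant of the members at 24 h, serglycin followed, and most other granzymes were near or at 0. On the FPKM scale, which divides by gene length and sample total, the mean level over the 6 samples was 1434 for Gzmb, the gene of rank 14 among the 22526 genes listed above 0. It was 189 for Srgn, 22.7 for Prf1, 5.40 for Gzma, 2.08 for Gzmc, 0.318 for Gzmk, 0.189 for Gzmm and 0.121 for Gzmf. Each step from Gzmb down to Gzmk was larger than the spread, because the lowest sample of the higher gene lay above the highest sample of the next. Gzmk, Gzmm and Gzmf overlapped in their ranges and did not differ beyond their spread. The order was the same when counts were divided by the merged exon length instead.

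**Figure D1:**
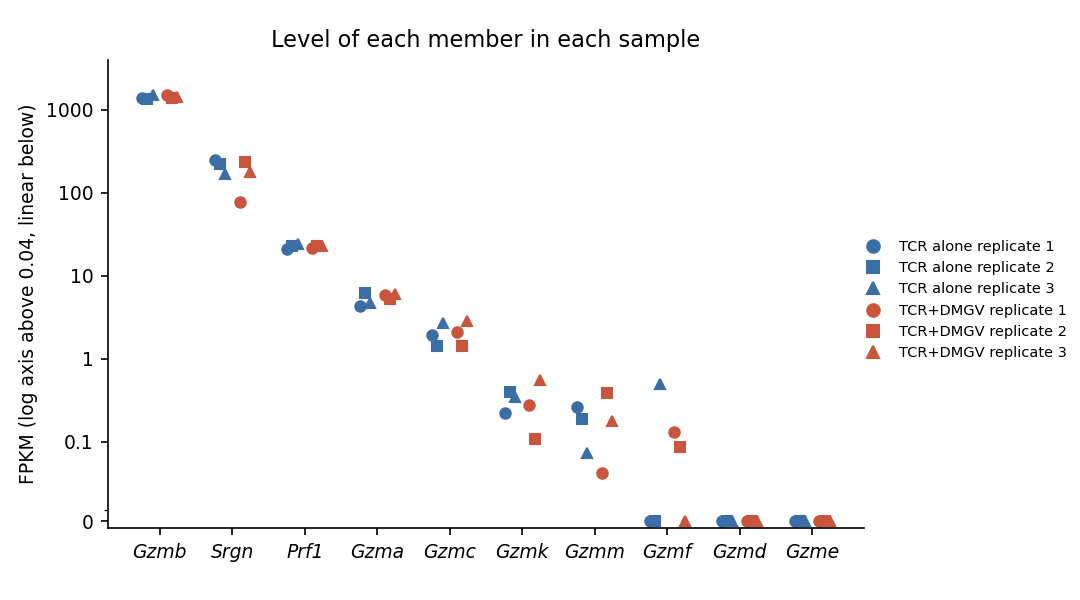
Level of each of the 10 members in each sample in FPKM (y axis, logarithmic above 0.04 and linear below), ordered by mean, with TCR alone in blue and TCR+DMGV in red. Gzmb sits between 1341 and 1527 FPKM, Srgn is lowest in TCR+DMGV replicate 1, and Gzmd and Gzme are at 0 throughout.

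No member passed the test between TCR+DMGV and TCR alone. Of the 10 members, 7 passed the filter on low counts and were tested among 14786 genes with edgeR's quasi-likelihood test. None of the 7 had an adjusted p below 0.05 and none an unadjusted p below 0.05, where 0.0135% of all tested genes (2 genes) passed the adjusted threshold. DESeq2 (8 members tested) and limma's trend test on log2(FPKM + 1) (7 members tested) also called none, where DESeq2 called 0.072% and limma 0 of all genes. The adjusted p was 0.999 for each of the 7. In none of the 7 did the groups lie apart without overlap, which 8.86% of all tested genes did. The median log2 fold change of the 7 was 0.06, beside 0.0024 over all tested genes. The precision differed widely between members, so the 95% interval of each fold change is given below. In bulk RNA, fewer cells of a type and less RNA per cell cannot be told apart, which holds for each value that follows.

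Prf1 (chr10:61297833-61304680, plus strand) encodes the protein that forms the pore. Its normalized level in CPM (counts scaled to the library total, with TMM) was 61.3, 67.7 and 68.9 in TCR alone replicates 1, 2 and 3 and 62.2, 67.5 and 68.5 in TCR+DMGV replicates 1, 2 and 3. Replicate 1 was the lowest in each group, and the groups covered nearly the same range. The mean was 66.0 ± 4.05 (SD, n = 3) in TCR alone and 66.1 ± 3.38 (SD, n = 3) in TCR+DMGV. The log2 fold change was 0.0025 with a standard error of 0.088, and the 95% interval ran from 0.869-fold to 1.16-fold.

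Gzmb (chr14:56258838-56262260, minus strand) encodes granzyme B, which cleaves after aspartate and activates caspases. Its counts were 85221, 89992 and 97701 in TCR alone and 107572, 98797 and 93704 in TCR+DMGV, in replicate order. They made up 0.226%, 0.216% and 0.242% of the library with TCR alone and 0.247%, 0.226% and 0.231% with TCR+DMGV. The widest Wilson 95% interval of these shares, in TCR alone replicate 3, ran from 0.241% to 0.244%, and such intervals cover counting error only. Counting error was thus smaller than the spread between samples.

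After normalization Gzmb stood at 2244, 2205 and 2360.4 CPM in TCR alone and at 2417, 2294 and 2365 CPM in TCR+DMGV. TCR+DMGV replicate 1 was the highest, but TCR+DMGV replicate 2 lay below TCR alone replicate 3, so the groups overlapped. The mean was 2269.7 ± 80.8 (SD, n = 3) in TCR alone and 2359 ± 61.4 (SD, n = 3) in TCR+DMGV. The log2 fold change of 0.06 had a standard error of 0.06. Its 95% interval, from 0.938-fold to 1.15-fold, was the narrowest of the members. Without both samples that stood apart on the first component, the log2 fold change was 0.07 and the groups no longer overlapped, as they did not for 38.7% of all tested genes in that setting.

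Gzmb accounted for nearly all granzyme RNA. Its share of the counts of the 8 granzymes lay between 99.5% and 99.7% in each of the 6 samples. CD8 T cells are the classical source of granzyme B, so its counts were set beside those of Cd8a, which encodes a chain of the CD8 coreceptor. There were 7.55, 7.84 and 7.57 Gzmb counts per Cd8a count in TCR alone and 7.01, 7.72 and 7.11 in TCR+DMGV. The groups overlapped here as well.

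Gzma and Gzmk encode granzymes that cleave after basic residues, and both genes were low. Gzma had 185, 292 and 218 counts with TCR alone and 290, 260 and 276 with TCR+DMGV. TCR alone replicate 2 was the highest of all samples and TCR alone replicate 1 the lowest, so TCR alone enclosed TCR+DMGV. In CPM the means were 5.76 ± 1.22 (SD, n = 3) and 6.51 ± 0.463 (SD, n = 3). For Gzma the log2 fold change was 0.17 with a standard error of 0.19, and its 95% interval ran from 0.833-fold to 1.53-fold.

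Gzmk had 13, 27 and 23 counts with TCR alone and 20, 8 and 36 with TCR+DMGV. TCR+DMGV held both the lowest and the highest sample. The log2 fold change was -0.02 with a standard error of 0.63. Its 95% interval, from 0.355-fold to 2.73-fold, does not exclude a large change in either direction. One annotated Gzmk transcript overlaps Esm1 on the other strand, and the counting is not stated to use strand.

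The granzymes in the row on chromosome 14 beside Gzmb were low or at 0, and of them only Gzmc had counts in every sample. Gzmc had 74, 61 and 110 counts with TCR alone and 94, 64 and 116 with TCR+DMGV. Replicate 2 was lowest and replicate 3 highest in each group, and the groups overlapped. The means were 2.03 ± 0.586 CPM (SD, n = 3) in TCR alone and 2.18 ± 0.723 CPM (SD, n = 3) in TCR+DMGV. For Gzmc the log2 fold change was 0.10 with a standard error of 0.34, and the interval ran from 0.618-fold to 1.85-fold.

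Gzmd and Gzme had 0 counts in all 6 samples. A count of 0 allows up to 3 counts, which is 0.0674 to 0.0790 CPM depending on the library. Gzmf had 22 counts in TCR alone replicate 3, 7 in TCR+DMGV replicate 1, 4 in TCR+DMGV replicate 2 and 0 in the other 3 samples. It failed the filter, and neither group was above 0 in every sample. Among 10 other serine proteases of the granzyme and mast cell protease clusters none reached the filter, and Gzmg and Gzmn were also at 0 in every sample. Of the 10 only Ctsg, Mcpt8 and Cma1 had any count, of at most 13 in a sample.

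Gzmm encodes a granzyme best known from natural killer cells and innate-like T cells. It had 17, 13 and 5 counts with TCR alone and 4, 28 and 13 with TCR+DMGV. TCR+DMGV held the lowest and the highest sample. At 0.27, the log2 fold change had a standard error of 0.81, and the 95% interval of 0.324-fold to 4.50-fold was the widest of the members.

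**Figure D2:**
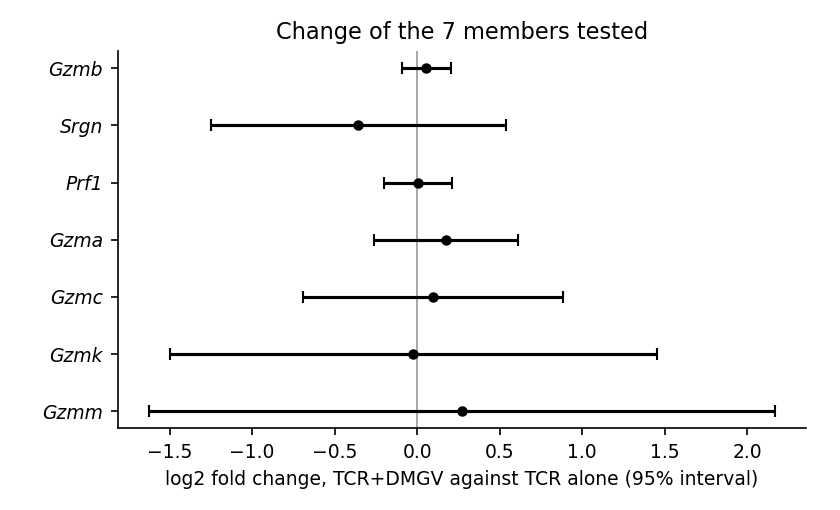
Log2 fold change of TCR+DMGV against TCR alone (x axis) for the 7 members tested, as points with 95% intervals from edgeR. Every interval includes 0, with Gzmb and Prf1 the narrowest and Gzmk and Gzmm the widest.

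Serglycin RNA varied more between samples than that of the other abundant members. Srgn (chr10:62493833-62527451, minus strand) stood at 617, 562 and 402 CPM in TCR alone and at 190, 597 and 448 CPM in TCR+DMGV. TCR+DMGV replicate 1 was the lowest and TCR alone replicate 3 the next, and these are the samples that stood apart on the first principal component. The groups overlapped, with means of 527 ± 111 (SD, n = 3) in TCR alone and 412 ± 206 (SD, n = 3) in TCR+DMGV. The log2 fold change was -0.36 with a standard error of 0.38, and the 95% interval ran from 0.420-fold to 1.45-fold.

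Single samples decided the size of this value. Without TCR+DMGV replicate 1 the log2 fold change of Srgn was -0.01, and without TCR+DMGV replicate 2 it was -0.72. Without both samples that stood apart it was -0.17. Between the lowest and the highest sample Srgn differed by 1.70 on the log2 scale. Among the 5662 genes whose mean log2 CPM exceeded 5, the median of this range was 0.33, and 1.25% of them had a range at least that of Srgn. The corresponding ranges were 0.13 for Gzmb and 0.17 for Prf1. This comparison of ranges was chosen after the values were seen.

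The part of serglycin that carries its sugar chains is a run of serine and glycine pairs, shown because it is the part of the molecule that holds granzymes in the granule. The 72 bases lie at chr10:62494992-62495063 (GRCm38, minus strand) in the last coding exon, and the capitals mark the 10 Ser-Gly pairs among the 152 codons of the protein.
Srgn repeat: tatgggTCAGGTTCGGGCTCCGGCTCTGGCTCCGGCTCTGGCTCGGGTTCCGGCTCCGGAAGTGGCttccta
The transcripts Srgn-201, Srgn-204 and Srgn-205 have the same coding sequence of 456 bases. They start at different first exons and end at different points of the last exon.

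The authors' assignment of Srgn reads to these transcripts differed strongly between samples of the same group. Srgn-201 took 18130, 2462 and 890 counts with TCR alone and 920, 14930 and 2788 with TCR+DMGV. Srgn-205 took 1483, 20030 and 14940 counts with TCR alone and 6112, 7031 and 14199 with TCR+DMGV. Srgn-204 took 3813, 429 and 808 counts with TCR alone and 1392, 3760 and 764 with TCR+DMGV. Srgn-201 was thus the leading transcript in TCR alone replicate 1, with 77.4% of the Srgn counts, and in TCR+DMGV replicate 2, with 58.0%. In the other 4 samples Srgn-205 led, with 72.4% to 89.7%. The leading transcript did not follow the treatment, and the sum over transcripts equalled the gene's count in each sample.

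Prf1 reads were divided between Prf1-201, which starts in its own first exon, and Prf1-202, which starts upstream, both with the same coding sequence of 1662 bases. Prf1-201 took 1187, 1652 and 1474 counts with TCR alone and 996, 1609 and 1187 with TCR+DMGV. Prf1-202 took 1143, 1111 and 1377 counts with TCR alone and 1774, 1298 and 1529 with TCR+DMGV. The groups overlapped for both transcripts. In log2 fold change, Prf1-201 had -0.26 (standard error 0.23) and Prf1-202 had 0.26 (standard error 0.17). Without TCR+DMGV replicate 1 they were -0.10 and 0.17, and without TCR+DMGV replicate 2 they were -0.47 and 0.36.

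Of the 20 annotated transcripts of the members, 11 passed the filter, and none passed the threshold with edgeR over 38401 transcripts, where 0% of all transcripts did. None of the 11 had an unadjusted p below 0.05, beside 3.22% of all tested transcripts. DESeq2 called none of the 13 member transcripts it gave an adjusted p, beside 0.788% (400 of 50760) of all transcripts. In none of the 11 did the groups lie apart without overlap, where 9.25% of all tested transcripts did. Gzmk-201 took most Gzmk counts in 4 samples, whereas Gzmk-202 led in TCR alone replicate 1, with 10 counts against 3, and in TCR+DMGV replicate 2, with 8 against 0. Gzmb, Gzmc and Gzmf have 1 annotated transcript each, and Gzma-201 took all but 3, 7 and 12 of the Gzma counts in the 3 samples where Gzma-202 had any.

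**Figure D3:**
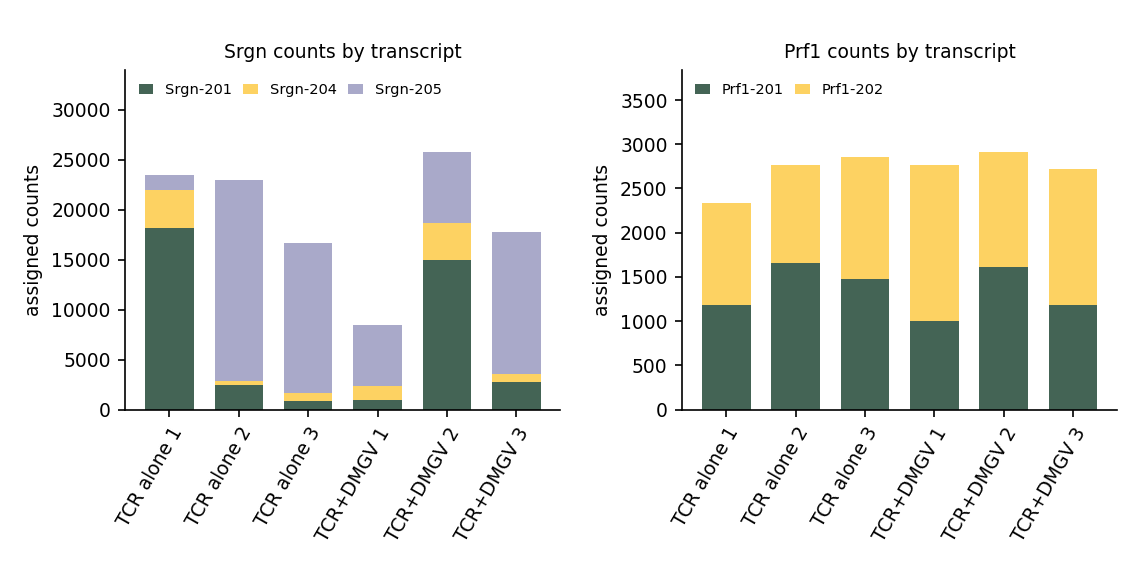
Counts assigned to the transcripts of Srgn (left) and Prf1 (right) in each sample, stacked by transcript, with assigned counts on the y axis from 0. Srgn-201 leads in TCR alone 1 and TCR+DMGV 2 and Srgn-205 in the other 4 samples, while the Prf1 transcripts share the counts in all 6.

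Markers of cell types were read to see which cells the RNA could come from. All 14 pan T cell markers were tested and none passed the threshold, and their summed level was 4617, 4781 and 5080 CPM in TCR alone and 5286, 5076 and 5232 CPM in TCR+DMGV. Of the 14 genes 13 were higher in TCR+DMGV, 4 of them without overlap. Lck, a kinase of TCR signalling, was the most abundant of them at 600 CPM. The labelled cell type was thus borne out by its defining markers. The 2 CD8 markers summed to 525, 507 and 585 CPM in TCR alone and 616, 538 and 580.3 CPM in TCR+DMGV, with Cd8a the more abundant at 311 CPM. The groups overlapped for CD8. The 3 CD4 markers, led by Cd4 at 205 CPM, were at 276, 267 and 278 CPM in TCR alone and at 294, 299 and 308 CPM in TCR+DMGV. These sums did not overlap, nor did Cd4 itself, whereas Cd40lg and Zbtb7b did overlap, and 8.86% of all tested genes had no overlap. None of these 5 genes passed the threshold, and their part in the member values was not tested.

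Other cells that make granzymes or granule proteases left little RNA. The 12 natural killer cell markers summed to between 4.90 and 7.77 CPM, with Klri2 the most abundant at 1.74 CPM. The 5 gamma delta T cell markers summed to between 22.6 and 28.7 CPM, mostly Trdc at 20.2 CPM. The NKT cell marker, Zbtb16, was at 2.00, 2.25 and 1.69 CPM in TCR alone and 1.64, 0.929 and 1.64 CPM in TCR+DMGV. It was lower without overlap, as 8.86% of all tested genes were without overlap in either direction. Of 9 mast cell markers, 5 were at 0 in all samples (Fcer1a, Mcpt4, Mrgprb2, Tpsab1 and Tpsb2), and the sum was at most 4.14 CPM, with Hdc leading. Of 9 neutrophil markers 8 were at 0 in all samples, and the remaining Ctsg reached at most 0.0966 CPM. Of 3 basophil markers 2 were at 0, and the remaining Mcpt8 reached at most 0.0929 CPM.

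B cell markers (8 genes, led by Cd79b) summed to between 11.1 and 13.6 CPM and plasma cell markers (3 genes, led by Sdc1) to between 5.36 and 8.77 CPM. The 10 macrophage and monocyte markers, led by Csf1r, summed to between 10.6 and 13.8 CPM, with C1qc and Mertk at 0. Dendritic cell markers (5 genes, led by Itgax, with Cd209a and Clec9a at 0) reached at most 5.57 CPM and plasmacytoid dendritic cell markers (3 genes, led by Ccr9, with Siglech at 0) at most 5.91 CPM. Erythroid markers (6 genes, led by Hbb-bs) stood at 4.69, 4.93 and 3.72 CPM in TCR alone and at 1.75, 3.72 and 3.56 CPM in TCR+DMGV, so that the groups only just failed to overlap. Platelet markers (4 genes, led by Itga2b) were higher in TCR+DMGV without overlap but reached at most 1.31 CPM, and Itga2b itself overlapped. Of all tested genes, 8.86% had no overlap in either direction. No gene of any of these lists passed the threshold with edgeR, while Trbc1 of the pan T cell list and Klre1 of the natural killer cell list (both higher) and Blk of the B cell list and Hba-a2 of the erythroid list (both lower) had an unadjusted p below 0.05. These were 4 of the 55 markers tested (7.27%), beside 3.19% of all tested genes, and they were named after their values were seen.

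The genes that work with granzymes and perforin were followed in 8 further lists. Of 144 genes 143 were matched and 130 tested, and none passed the threshold with edgeR, while 3 had an unadjusted p below 0.05 with higher and 2 with lower values in TCR+DMGV, beside 3.19% of all tested genes. DESeq2 called 1 gene of the 133 it gave an adjusted p, Bach2, beside 0.072% (14 of 19448) of all genes. The median log2 fold change was -0.0038, with 64 genes higher and 66 lower, beside 7483 higher and 7303 lower among all tested genes. In 6 genes TCR+DMGV lay wholly above and in 6 wholly below TCR alone, beside 8.86% of all tested genes in either direction.

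Of 16 genes that process and package granule proteins, 10 were higher and 6 lower, with a median log2 fold change of 0.03. Smallest in p was Cst7, a cathepsin inhibitor that limits granzyme maturation, at 79.8, 78.5 and 89.3 CPM in TCR alone and 96.2, 86.3 and 88.5 CPM in TCR+DMGV. The groups overlapped, and the log2 fold change was 0.13 (standard error 0.09). Ap3b1, an adaptor subunit for sorting to lysosome-like organelles, had 0.09 (standard error 0.07), and Nkg7, a granule membrane protein, also had 0.09 (standard error 0.08).

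Of 22 tested genes that move and release granules, 10 were higher and 12 lower, with a median of -0.03, which was 0.06 without TCR alone replicate 3. Rab27a, the small GTPase that docks cytotoxic granules, was at 117, 121 and 121 CPM in TCR alone and at 83.2, 109.6 and 104 CPM in TCR+DMGV. All 3 TCR+DMGV samples lay below TCR alone, with TCR+DMGV replicate 1 the lowest. At a log2 fold change of -0.27 (standard error 0.11) and an adjusted p of 0.999 by edgeR, the gene did not pass. Without both samples that stood apart its log2 fold change was -0.15. Stx11, a syntaxin needed for granule fusion, lay lower without overlap too, at -0.15 (standard error 0.09), and Stxbp3 overlapped at -0.34 (standard error 0.14). Rab27a and Stx11 were the 2 genes without overlap among the 22, near the 8.86% of all tested genes without overlap in either direction.

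Of 8 tested serpins, listed as granzyme inhibitors or relatives of them, 2 were higher and 6 lower. The median was -0.10, which was 0.03 without TCR+DMGV replicate 1. The serpins of smallest p were Serpina3f at -0.16 (standard error 0.15), Serpina3g at -0.08 (standard error 0.08) and Serpinb6a at 0.16 (standard error 0.20), each with overlapping groups. They belong to multigene families whose members can share reads. Among 23 genes listed as granzyme substrates or as cell death proteins beside them, 11 were higher and 12 lower, with a median of -0.01. Whether a granzyme cleaves each product was not tested. Dffb, the nuclease that fragments DNA in apoptosis, was at 18.1, 17.1 and 17.9 CPM in TCR alone and 20.2, 21.1 and 19.8 CPM in TCR+DMGV. Gsdmd, a pore former of pyroptosis, was at 19.9, 21.5 and 21.1 CPM in TCR alone and 23.3, 24.3 and 23.8 CPM in TCR+DMGV. Both lay higher without overlap, at 0.20 (standard error 0.09) and 0.19 (standard error 0.09), whereas Hmgb2, a chromatin protein, lay lower without overlap at -0.16 (standard error 0.07). None of the 3 passed the threshold. In this list 2 genes lay higher and 2 lower without overlap, beside 8.86% of all tested genes in either direction.

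Of 33 regulators of cytotoxic genes 18 were higher and 15 lower, with a median of 0.02. Bach2, a repressor that restrains effector differentiation, was at 222, 179 and 94.7 CPM in TCR alone and at 66.9, 68.8 and 94.4 CPM in TCR+DMGV. It was the 1 gene of the 33 whose groups did not overlap, beside 8.86% of all tested genes. Even so, TCR alone replicate 3 and TCR+DMGV replicate 3 nearly met. With a log2 fold change of -1.11 (standard error 0.30), the adjusted p was 0.999 by edgeR and 0.0464 by DESeq2, the lowest of 16 alternatives, of which none other fell below the threshold. Without both samples that stood apart it was -1.30 with an adjusted p of 0.161 by edgeR. Hopx, a cofactor found in effector cells, had 0.39 (standard error 0.18) and Ikzf2, an Ikaros family factor, had -0.90 (standard error 0.41), both with overlapping groups.

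Of 15 other effectors of killing 10 were higher and 5 lower, with a median of 0.12, which dropped to 0.05 when TCR+DMGV replicate 2 was left out and to 0.06 when TCR alone replicate 1 was. The cytokine gene Tnf was at 27.8, 29.7 and 29.1 CPM in TCR alone and 37.8, 33.1 and 39.9 CPM in TCR+DMGV. The chemokine gene Xcl1 was at 152, 175 and 189 CPM in TCR alone and 211, 204 and 237 CPM in TCR+DMGV. Another chemokine gene, Ccl4, was at 151, 174 and 189 CPM in TCR alone and 212, 198 and 219.6 CPM in TCR+DMGV. In each of the 3 all TCR+DMGV samples lay above all TCR alone samples, whereas Tnfsf10 of the same list, which encodes the death ligand TRAIL, lay below without overlap, at 34.5, 31.6 and 30.5 CPM in TCR alone and 28.8, 28.03 and 29.1 CPM in TCR+DMGV. These were 4 of the 15 genes, beside the 8.86% of all tested genes without overlap. The log2 fold changes of Tnf, Xcl1 and Ccl4 were 0.35, 0.34 and 0.29 (standard error 0.10 each), with an adjusted p of 0.999 by edgeR. Over the 16 alternatives they ran from 0.30 to 0.43 for Tnf, 0.24 to 0.43 for Xcl1 and 0.19 to 0.38 for Ccl4. These 3 had an unadjusted p below 0.05, as 3.19% of all tested genes did. Of 13 receptors of cytokines that induce granzymes 3 were higher and 10 lower, with a median of -0.03, and those of smallest p were Il12rb2 at -0.20 (standard error 0.11), Il12rb1 at 0.11 (standard error 0.07) and Il2rg at 0.11 (standard error 0.08).

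**Figure D4:**
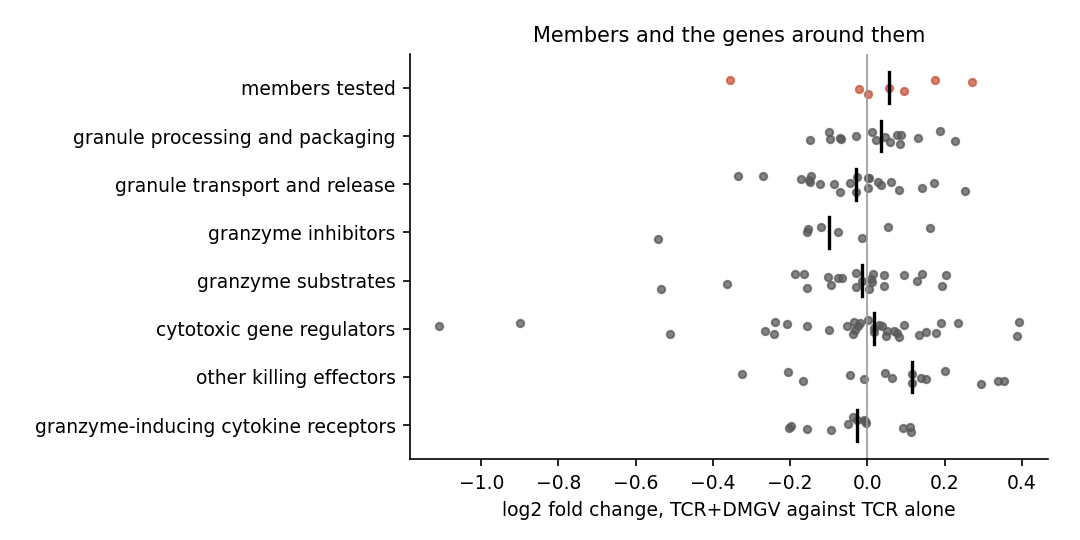
Log2 fold change of TCR+DMGV against TCR alone (x axis) for the 7 members tested (red) and for the tested genes of 7 lists of genes around them (grey), 1 point per gene, with the list median as a black bar. The medians lie between -0.10 and 0.12, and the farthest point, at -1.11, is Bach2.

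For the 3 abundant members, the genes whose log2 CPM followed them most closely over the 6 samples were sought among 9082 genes whose mean log2 CPM exceeded 3. Gzmb was followed most closely by Psmc1, a proteasome subunit, with a Pearson correlation of 0.993, then by Eml3 (0.989) and Uqcrh (0.988). The genes nearest to Prf1 were Ube2v1 (0.993), Myo1h (0.988) and Zfp422 (0.980), and those nearest to Srgn were Papola (0.985), Uhrf2 (0.978) and Gm46430 (0.976). With 6 samples that share the same libraries and 9082 candidates, these correlations are descriptions only.

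The sequence before the transcription start is shown for 4 members of unlike level, Gzmb as the most abundant, Prf1 as the pore former, Gzmc with little RNA and Gzmd with none counted. Each runs from 250 bases before to 50 after the RefSeq start (GRCm38.p6), 5′ to 3′ in the direction of the gene. Capitals mark matches on either strand to TGTGGT (Runx), TGANTCA (AP-1), TGACGT (CRE core) and AGGAAGT (Ets), names of factor families known from cytotoxic lymphocytes.
Gzmb promoter: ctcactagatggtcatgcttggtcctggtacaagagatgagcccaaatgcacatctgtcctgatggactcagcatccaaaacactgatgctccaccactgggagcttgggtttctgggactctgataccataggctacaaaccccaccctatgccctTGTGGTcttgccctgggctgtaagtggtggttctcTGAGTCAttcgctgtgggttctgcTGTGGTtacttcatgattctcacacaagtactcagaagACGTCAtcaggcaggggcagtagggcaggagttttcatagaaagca
Gzmc promoter: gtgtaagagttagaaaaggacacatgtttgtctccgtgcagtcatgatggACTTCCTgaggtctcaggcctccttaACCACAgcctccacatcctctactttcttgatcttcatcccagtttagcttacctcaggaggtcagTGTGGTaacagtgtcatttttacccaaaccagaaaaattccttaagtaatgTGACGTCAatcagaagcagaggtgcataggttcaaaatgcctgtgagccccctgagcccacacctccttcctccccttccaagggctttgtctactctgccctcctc
Gzmd promoter: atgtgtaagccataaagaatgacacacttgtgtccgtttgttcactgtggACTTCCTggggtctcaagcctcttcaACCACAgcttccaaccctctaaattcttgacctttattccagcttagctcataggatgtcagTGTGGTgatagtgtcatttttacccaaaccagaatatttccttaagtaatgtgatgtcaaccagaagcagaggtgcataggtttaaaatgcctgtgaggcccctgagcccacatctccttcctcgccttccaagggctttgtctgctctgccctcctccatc
Prf1 promoter: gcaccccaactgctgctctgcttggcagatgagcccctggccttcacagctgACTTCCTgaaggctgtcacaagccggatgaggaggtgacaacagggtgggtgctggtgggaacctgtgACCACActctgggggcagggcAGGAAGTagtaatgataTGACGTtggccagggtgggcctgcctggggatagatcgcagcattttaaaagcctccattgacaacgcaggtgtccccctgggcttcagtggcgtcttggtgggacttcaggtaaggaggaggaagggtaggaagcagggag
They lie at chr14:56262285-56262584, chr14:56234608-56234907 and chr14:56132544-56132843 on the minus strand and at chr10:61297586-61297885 on the plus strand, the last at the start of Prf1-202. The Gzmb window held 2 Runx matches, 1 AP-1 match and 1 CRE core. In Gzmc there were 2 Runx matches, 2 CRE cores that overlap each other and 1 Ets match, and in Gzmd 2 Runx matches and 1 Ets match. Prf1 had 1 Runx match, 1 CRE core and 2 Ets matches. Of 32851 promoters of this length, 16.8% held the Runx letters, 7.81% the AP-1 letters, 7.51% the CRE core and 9.35% the Ets letters. Among these 4 windows the AP-1 letters occurred only in Gzmb. Gzmc and Gzmd were 82.7% identical over the window and Gzmb and Gzmc 46.2%. A match of letters does not show binding, and no binding was measured.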

How the data were processed

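RNA of 6 samples was sequenced by the authors (Illumina Xten, mRNA libraries made from extracted total RNA). The authors filtered reads with SOAPnuke, mapped them with HISAT2 2.0.4 (version per the submitters' processing notes) and quantified them with StringTie. They deposited whole-number counts and FPKM values per gene and per transcript. The FPKM values deposited by the authors are scaled to length and sample total. The notes name the genome build mm9, but 99.7% of the 52550 gene identifiers matched GENCODE M21 (GRCm38) without version, and coordinates come from that annotation. Promoters are from RefSeq (GRCm38.p6), and all 10 members matched. How coverage was turned into counts, and whether strand was used, is not given in the sources used here.

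Counts were fitted with edgeR 4.0.16 in R 4.3.3 (TMM, filterByExpr, quasi-likelihood test, two-sided, Benjamini-Hochberg over all 14786 genes or 38401 transcripts, threshold 0.05). Fold change intervals come from the fit. Principal components used log2 CPM with a prior count of 2. All sample pairs differed by more than counting noise (median chi-square per gene 4.24 to 10.9). Alternatives were DESeq2 1.42.0, other size factors and filters, summed transcript counts, limma 3.58.1 on log2(FPKM + 1) or log2(FPKM + 0.1), the replicate number as a block, and samples left out. An exact permutation test of 3 against 3 samples cannot go below 0.10 and was not used. The fit was tested on simulated counts. The genes named are all members, the genes of each list past the threshold or otherwise the 3 of smallest p, the most abundant gene of each cell type list, and the 3 genes most like Gzmb, Prf1 and Srgn. Markers at 0, markers of unadjusted p below 0.05 and others outside this rule were named after their values were seen. The members and lists were chosen with earlier results of these data known.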

Additional observations from a re-analysis of the deposited data

How the results depend on the processing

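No member passed the threshold under any of the 16 alternatives, and no transcript of a member under any of 10. The log2 fold changes of Gzma, Gzmb and Srgn kept their sign in all 16, over 0.05 to 0.36 for Gzma, 0.03 to 0.09 for Gzmb and -0.72 to -0.01 for Srgn. Prf1, at 0.0025, turned to -0.0044 with DESeq2-style size factors, -0.0126 with library size alone, -0.0034 with DESeq2, -0.0122 on log2(FPKM + 1) and -0.0126 on log2(FPKM + 0.1), and ran from -0.0646 to 0.0408 with samples left out in turn. With samples left out in turn, Gzmc ran from -0.18 to 0.34, Gzmk from -0.71 to 0.38 and Gzmm from -0.51 to 0.73, and without both samples that stood apart Gzmk was 0.12, Gzmc 0.36 and Prf1 0.08. For transcripts these ranges were -0.18 to 0.33 (Gzmc-201), -1.01 to 0.63 (Gzmk-201), -0.52 to 0.72 (Gzmm-201), -0.47 to -0.10 (Prf1-201), 0.17 to 0.36 (Prf1-202), -2.05 to 1.82 (Srgn-201), -1.14 to 0.57 (Srgn-202), -0.79 to 1.59 (Srgn-204) and -0.99 to 0.11 (Srgn-205). The number of members without overlap between groups ran from 0 to 1 with samples left out in turn and was 1 (Gzmb) without both samples that stood apart, where 15.9% to 28.4% and 38.7% of all tested genes did not overlap. List genes past the threshold numbered 1 (Bach2) with DESeq2 and 0 otherwise. With samples left out in turn, the list medians ran from -0.0092 to 0.08 (processing and packaging), -0.06 to 0.06 (transport and release), -0.11 to 0.03 (inhibitors), -0.06 to 0.0085 (substrates), -0.04 to 0.04 (regulators), 0.05 to 0.13 (other killing effectors) and -0.09 to 0.03 (cytokine receptors), so the sign of each but the killing effectors turned. Without both samples that stood apart the killing effectors were at 0.17, the cytokine receptors at -0.12, the inhibitors at -0.04 and transport and release at -0.0044. The cause of these shifts was not tested.

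The labels do not say whether samples of the same replicate number belong together. Same-numbered samples correlated at -0.15, 0.12 and -0.15 in their deviations from the group means, and differently numbered ones at -0.20 to 0.31. Such correlations cannot decide whether samples share a mouse, and the main fit used no pairing. With the replicate number as a block, 0 members, 0 member transcripts and 0 list genes passed, Srgn was -0.47, and the sign turned for the transcripts Gzmk-201 (-0.20), Srgn-201 (0.60) and Srgn-205 (0.0598). Over all genes the block left 0 calls in place of 2, whereas DESeq2 called 14 genes and, among 50760 transcripts given an adjusted p, 400 in place of 0.

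With 3 samples a group, changes inside the intervals given were not excluded. The intervals were widest for Gzmk and Gzmm, which had few counts. Gzmf failed the filter on low counts and was not tested in the main edgeR fit.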
